A study of Homo sapiens with 2 samples.

Results

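The kinesin family of motor protein genes was examined in spheroids grown from MDA-MB-231 cells, an established line of triple-negative breast adenocarcinoma kept in medium with 10% serum. The family was taken by name as every protein-coding gene whose symbol is KIF followed by a number, together with KIFC1, KIFC2, KIFC3 and the kinesin light chain genes KLC1, KLC2 and KLC4. This gave 45 genes of 57773 in the deposited table of all genes. The rule uses no measured value, though it was set with earlier results of these data known. By known role, 14 were classed as mitotic, 20 as transport and 11 as other or mixed. The series compared 1 spheroid sample treated with TGS24, a compound known by its code name only, with 1 Control spheroid sample of the same line. The stated aim of the series was to examine expression of the MAPK12 pathway under TGS24. Dose, length of treatment and any vehicle in Control are not stated in the labels. No other line was studied. As each group is a single library, nothing checks the spread between replicates and no test can be run, so each statement below compares these libraries, not the conditions.

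Kinesins are motors that walk along microtubules by hydrolysing ATP in a conserved motor domain. Mitotic kinesins slide, shorten or bundle spindle microtubules and move chromosomes, and their messenger RNAs commonly peak in the G2 and M phases of the cell cycle. Transport kinesins carry vesicles, mitochondria, protein complexes and messenger RNA towards the cell edge, in part through light chains that bind the cargo. In breast cancer cells the mitotic motors are known chiefly for cell division and the transport motors for organelle position and migration.

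The table of all genes held 16245735 reads in the TGS24 library and 8628931 in the Control library. As a check of the labelled cell type, all 7 usable marker genes of MDA-MB-231 were above the read minimum in both libraries together. Reads of these 7 ran from MSN, with 4027 in TGS24 and 2509 in Control, down to LGALS1, with only 32 and 72. A further 2 markers stood in rows left out as irregular. Of 8 luminal epithelial markers 3 were measured, and the 8 summed to 120 reads in TGS24 and 101 in Control. The measured ones were FOXA1, with 55 reads in TGS24 and 48 in Control, PGR, with 22 and 8, and ESR1, with 18 and 18. FOXA1 thus had more reads in TGS24 than LGALS1. KRT18, CDH1, EPCAM, KRT8 and KRT19 had between 2 and 6 reads in TGS24 and between 0 and 11 in Control. All 7 MDA-MB-231 markers had intervals below 0, and 5 of them were at least 2-fold lower in TGS24. The 7 markers of blood cells summed to 12463 reads in TGS24 and 5879 in Control, of which HBB made 10453 and 4860, and none of them passed the 2-fold rule given next. The part of blood RNA, cell number, cell state or RNA per cell in any result was not tested, since fewer cells of a type and less RNA per cell cannot be told apart in bulk RNA.

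Ratios are given as the log2 ratio of TGS24 over Control of scaled reads, after a prior count of 2 was added, for the 10080 genes with at least 20 reads over both libraries. Beside each ratio stands its 95% Clopper-Pearson interval on read pairs, which reflects counting error alone. A gene counts as higher or lower where the ratio is at least 2-fold and the interval leaves out 0. Of all 10080 genes 12.7% were higher and 6.31% lower by this rule, and their median log2 ratio was -0.0041.

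Of the 45 kinesin genes 38 reached the read minimum. Among these, 10 were higher in TGS24 by this rule, 3 were lower, and 25 met it in neither direction. That is 26.3% higher and 7.89% lower, beside the background shares of 12.7% and 6.31%. The higher genes were the mitotic motors KIF20B, KIF15, KIF4A, KIF2C, KIF23 and KIF22, the transport motors KIF21A, KIF5B and KIF3A, and KIF2A. The lower genes were the light chain gene KLC4 and the motors KIF3C and KIF1A. The ratios went with the GC content of the transcripts, as they did over all genes. After each ratio was centred on the median of genes of like GC content, 4 kinesins were higher and 1 lower, against background shares of 5.35% and 5.95%. The 4 were KIF21A, KIF4A, KIF2C and KIF22, and the 1 was KLC4. All 13 genes kept their direction. With scaling factors computed over genes with at least 100 reads, which moved the median of all genes to -0.16, 9 kinesins were higher and 5 lower, and over all genes 990 were higher and 930 lower.

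**Figure D1:**
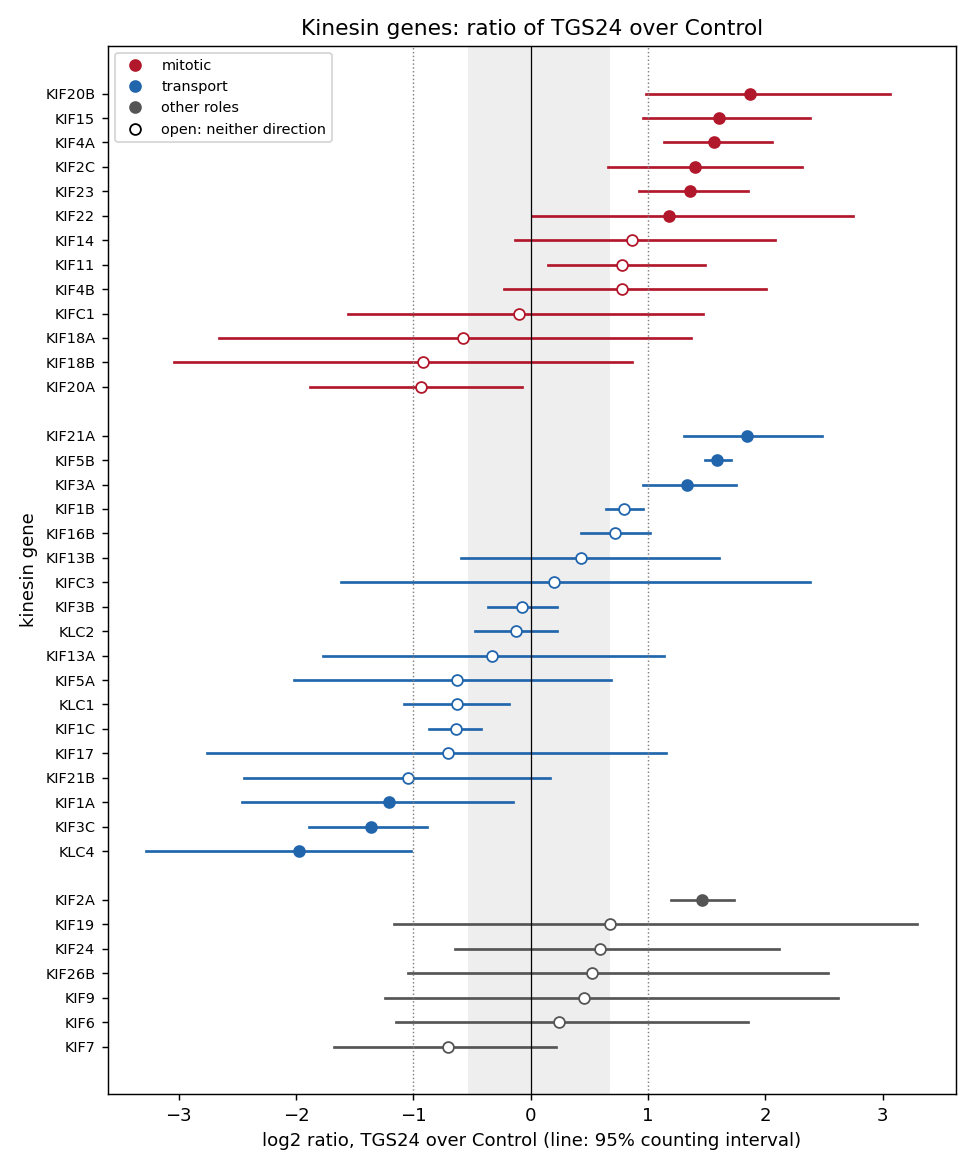
Log2 ratio of TGS24 over Control for the 38 kinesin genes with at least 20 reads, by role, with 95% counting intervals as lines. Filled points passed the 2-fold rule, dotted lines mark 2-fold, and the grey band spans the quartiles of all tested genes, -0.52 and 0.67. Mitotic genes reach from 1.87 for KIF20B to -0.94 for KIF20A, and transport genes from 1.84 for KIF21A to -1.98 for KLC4.

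The coding stretch of the same site is shown for 4 groups of close relatives, chosen because their ratios diverged. Capitals mark the P-loop, the nucleotide-binding loop of the motor domain, with 18 bases of coding sequence on each side. The stretches are from GENCODE v29 transcripts on GRCh38, and each P-loop was found as glycine, any 4 residues, glycine, lysine and then serine or threonine in the longest open reading frame. KIF3A, KIF3B and KIF3C are kinesin-2 transport motors, and KIF1B and KIF1C are kinesin-3 transport motors. KIF21A and KIF21B are kinesin-4 motors that regulate microtubule growth, and KIF20B and KIF20A are kinesin-6 motors of cell division.
KIF3A: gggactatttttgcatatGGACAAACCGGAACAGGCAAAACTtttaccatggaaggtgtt
KIF3B: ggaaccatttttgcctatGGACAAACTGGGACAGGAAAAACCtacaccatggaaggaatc
KIF3C: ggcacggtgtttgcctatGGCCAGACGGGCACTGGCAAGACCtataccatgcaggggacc
KIF1B: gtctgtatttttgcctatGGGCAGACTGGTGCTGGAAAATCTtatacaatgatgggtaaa
KIF1C: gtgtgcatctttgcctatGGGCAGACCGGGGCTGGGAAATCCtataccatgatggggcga
KIF21A: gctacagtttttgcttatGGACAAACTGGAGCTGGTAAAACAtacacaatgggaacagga
KIF21B: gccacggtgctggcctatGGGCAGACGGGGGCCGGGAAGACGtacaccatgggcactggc
KIF20B: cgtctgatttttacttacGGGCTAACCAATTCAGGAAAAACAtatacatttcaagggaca
KIF20A: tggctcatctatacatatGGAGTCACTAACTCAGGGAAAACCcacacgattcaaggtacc

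On GRCh38 the P-loop codons lie at chr5:132726458-132726481 in KIF3A (minus strand, exon 3), chr20:32310063-32310086 in KIF3B (plus strand, exon 2) and chr2:25981606-25981629 in KIF3C (minus strand, exon 1). Those of KIF1B lie at chr1:10258598-10258621 (plus strand, exon 4) and those of KIF1C at chr17:5001327-5001350 (plus strand, exon 5). The KIF20B codons lie at chr10:89710029-89710052 and the KIF20A codons at chr5:138182425-138182448, both on the plus strand in exon 5. In KIF21A and KIF21B, both on the minus strand, an intron splits the P-loop between exons 2 and 3. The printed stretch held 41.7% G and C in KIF3A, 45% in KIF3B and 61.7% in KIF3C. It held 40% in KIF1B against 56.7% in KIF1C, and 41.7% in KIF21A against 70.0% in KIF21B. For KIF20B and KIF20A the values were 36.7% and 45%. In each of these groups the gene with fewer G and C bases in this stretch had the higher ratio of TGS24 over Control. As the groups were chosen for diverging ratios, they cannot show how often this order holds among relatives. Among other pairs it held for KIF5B and KIF5A, KIF2A and KIF2C, KIF18A and KIF18B, and for KIF1A against KIF1B and KIF1C. The ratios of KIF2A and KIF2C were close, and the intervals of KIF18A and KIF18B both held 0. KIF4A and KIF4B have the same stretch. The order did not hold for KIFC1 and KIFC3. There KIFC1 had fewer such bases and the lower ratio, though both intervals held 0. Of the 45 genes, 42 had such a P-loop, and the exceptions were the light chain genes KLC1, KLC2 and KLC4, which carry no motor.

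Kinesin-1 is the main carrier of vesicles and mitochondria, a complex of heavy chains, which hold the motor, and light chains, which bind cargo. Its heavy chain gene KIF5B had 9117 reads in TGS24 and 1571 in Control, more than any other kinesin in both libraries. This was 3.01-fold higher in TGS24, with a log2 ratio of 1.59 and an interval from 1.48 to 1.70. KIF5B made up 46.3% of the family's 19711 reads in TGS24 (exact interval 45.3 to 47.2) and 29.4% of its 5347 reads in Control (27.7 to 31.2). Its ratio centred for GC content was 0.87, with an interval from 0.76 to 0.98, so the direction held and the 2-fold rule was no longer met.

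As counted, the light chains did not move with the heavy chain. KLC4 had 22 reads in TGS24 and 49 in Control and was 3.94-fold lower, with a log2 ratio of -1.98 and an interval from -3.27 to -1.02. It was the only kinesin gene lower by the rule after GC centring, at -1.53. KLC2 had 380 reads in TGS24 and 216 in Control, a log2 ratio of -0.13 (interval -0.48 to 0.22). KLC1 had 191 and 154, a log2 ratio of -0.63 (interval -1.08 to -0.18), short of 2-fold. After GC centring KLC2 stood at 0.28 (interval -0.07 to 0.63), on the same side of 0 as KIF5B, and KLC1 at -0.27 (interval -0.73 to 0.17). Of the exon bases of KLC1, 40.6% are shared with other annotated genes, among them BAG5 and XRCC3 on the opposite strand. For KLC4 this share is 12.8%, with CUL7 and MRPL2. Since strand handling is not given in the sources used here, reads from such overlaps cannot be told apart.

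The other heavy chains, KIF5A and KIF5C, are mainly neuronal. KIF5A had 24 reads in TGS24 and 20 in Control, with an interval from -2.02 to 0.69, and KIF5C had 8 and 6, under the read minimum. These depths do not show whether either differed.

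Kinesin-2 motors work as pairs of KIF3A with KIF3B or KIF3C, joined by the adaptor KIFAP3, and carry cargo in cilia and in the cytoplasm. Their 3 motor genes took 3 different courses. KIF3A had 630 reads in TGS24 and 129 in Control and was 2.52-fold higher, with a log2 ratio of 1.33 and an interval from 0.95 to 1.75. KIF3B, its common partner, had 548 reads in TGS24 and 300 in Control, a log2 ratio of -0.08 (interval -0.37 to 0.22). KIF3C had 119 reads in TGS24 and 161 in Control and was 2.57-fold lower, with a log2 ratio of -1.36 and an interval from -1.89 to -0.88. The adaptor KIFAP3 had 615 reads in TGS24 and 161 in Control, a log2 ratio of 0.98, just short of 2-fold. Per length, KIF3A stood at 5.65 RPKM (scaled reads by kilobase of exon and by library size) in TGS24 and 2.23 in Control. On that scale KIF3B stood at 5.52 and 5.82, so the levels of these partners lay close together in TGS24 and apart in Control. After GC centring KIF3A stood at 0.53 and KIF3C at -0.97, neither past the 2-fold rule. KIF17, the remaining kinesin-2 motor, had 12 reads in TGS24 and 11 in Control, with an interval from -2.76 to 1.15.

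Kinesin-3 motors carry vesicles and mitochondria over long distances. KIF1B had 2814 reads in TGS24 and 842 in Control, a log2 ratio of 0.79 (interval 0.64 to 0.96), above 0 but short of 2-fold. KIF1C, linked to Golgi traffic and cell adhesions, had 756 reads in TGS24 and 613 in Control, a log2 ratio of -0.64 (interval -0.86 to -0.42). KIF1A, chiefly a motor of neurons, had 26 reads in TGS24 and 33 in Control and was lower at -1.21, with an interval from -2.46 to -0.15. Both KIF1A and KIF22 were the genes nearest to the threshold among those that passed. KIF1A no longer passed with GC centring. With no filter on low counts its ratio was still past 2-fold, at -1.06, but its interval held 0, so it did not pass. In that setting the scaling factors changed as well. Of 6 neuronal marker genes 5 were under 20 reads, and the 6 summed to 179 reads in TGS24 and 80 in Control.

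KIF16B, which moves early endosomes, had 813 reads in TGS24 and 256 in Control, a log2 ratio of 0.72 (interval 0.43 to 1.02). KIF13A and KIF13B, carriers of endosomes and membrane proteins, had 24 and 58 reads in TGS24 and 16 and 22 in Control. Their intervals both held 0, from -1.77 to 1.14 and from -0.59 to 1.60.

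Among the kinesin-4 motors KIF21A, which restrains microtubule growth at the cell cortex, had 408 reads in TGS24 and 58 in Control. It was 3.59-fold higher, with a log2 ratio of 1.84 and an interval from 1.30 to 2.48, and stood at 1.40 after GC centring. KIF21B had 22 reads in TGS24 and 25 in Control, a log2 ratio of -1.04 (interval -2.44 to 0.16). It was the gene just outside the rule, because its interval held 0, and it passed when intervals were computed on reads in place of read pairs. The carboxy-terminal motor KIFC3 had 18 reads in TGS24 and 8 in Control, with an interval from -1.62 to 2.38. KIFC2 had 12 reads in TGS24 and 0 in Control, under the read minimum. Against a Control floor of 3 reads, set on reads and not on read pairs, this is 2.08-fold. The interval on read pairs, which counts the error in both libraries, begins at -0.71 and so holds 0. Of the KIFC2 transcript, 20% of the 100-base windows also occur in transcripts of other genes.

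Of the 20 transport genes, 18 were measured, and 3 were higher, 3 lower and 12 passed in neither direction. The shares over all genes were 12.7% higher and 6.31% lower. After GC centring 1 was higher and 1 lower, beside 5.35% and 5.95%. The 18 had a median log2 ratio of -0.23, or -0.17 after GC centring. KIF5B, KIF21A and KIF3A stood at the upper end and KLC4, KIF3C and KIF1A at the lower. Summed over all 20 genes the level was 984 RPM (scaled reads by library size alone) in TGS24 and 532 in Control, a log2 ratio of 0.89. Without KIF5B the sums were 423 and 346, a log2 ratio of 0.29, so KIF5B held most of the difference in the sum.

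**Figure D2:**
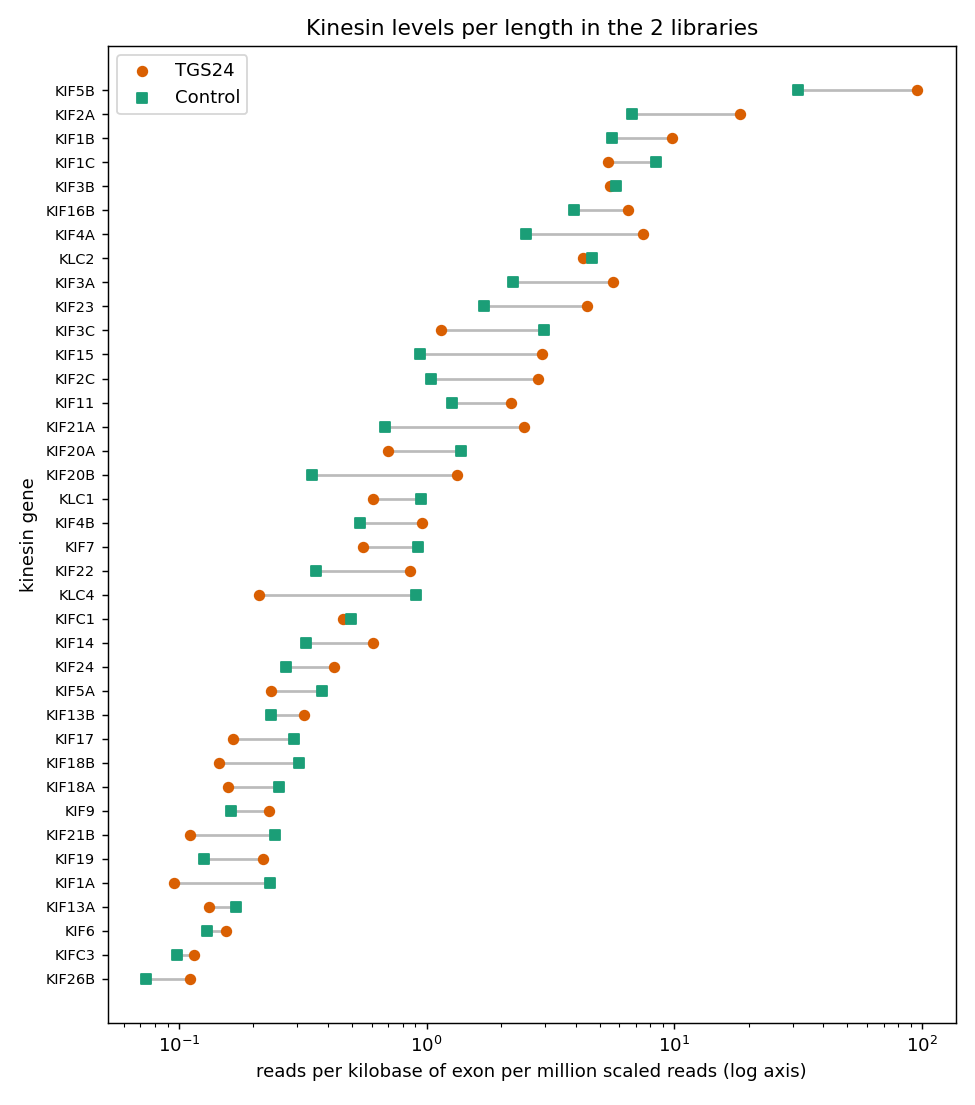
Levels per length, in RPKM of scaled reads, in the TGS24 library (circles) and the Control library (squares) for the 38 measured kinesin genes, on a log axis, ordered by the mean. KIF5B is far to the right with 95.4 in TGS24 and 31.7 in Control, followed by KIF2A with 18.5 and 6.72.

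Per length, KIF5B was the most abundant kinesin in both libraries, at 95.4 RPKM in TGS24 and 31.7 in Control. On this scale 16 of the 45 genes reached 1 in TGS24 and 14 did in Control. KIF2A ranked 2 in TGS24 and 3 in Control, while KIF1C ranked 8 in TGS24 and 2 in Control. KIF4A, a mitotic motor, ranked 4 in TGS24, at 7.49, and 9 in Control, at 2.51.

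The mitotic kinesins had more members above than below 0. Of 14 genes 13 were measured. By the rule 6 were higher and none lower, beside 12.7% and 6.31% over all genes. After GC centring 3 were higher and none lower, beside 5.35% and 5.95%. The median log2 ratio of these mitotic genes was 0.86, or 0.67 after GC centring. Their summed level was 127 RPM in TGS24 and 56.6 in Control, a log2 ratio of 1.17 (interval 0.96 to 1.37). The median was 1.09 above that of the transport genes on the log2 scale, and 0.84 above it after GC centring. With at least 100 reads required, the medians were 1.48 for mitotic and 0.32 for transport genes, so the transport median changed sign.

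Kinesins of the early spindle come first. KIF11, also called Eg5, pushes the spindle poles apart and had 174 reads in TGS24 and 52 in Control. Its log2 ratio was 0.78 with an interval from 0.15 to 1.49, and after GC centring it was -0.02. KIF15, which can take over from KIF11 in keeping the spindle bipolar, had 251 reads in TGS24 and 42 in Control. It was 3.04-fold higher, with a log2 ratio of 1.60 and an interval from 0.96 to 2.38. After centring it stood at 0.97, just under 2-fold. KIFC1, a minus-end motor that clusters extra centrosomes in cancer cells, had 25 reads in TGS24 and 14 in Control, with a log2 ratio of -0.10. Its interval from -1.56 to 1.47 shows no difference detectable at this depth.

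Kinesins that act on chromosomes and microtubule ends follow. KIF4A, a chromosome-bound motor that also limits the length of the midzone, had 552 reads in TGS24 and 96 in Control. It was 2.96-fold higher, with a log2 ratio of 1.56 and an interval from 1.13 to 2.05, and stood at 1.46 after GC centring. KIF4B, an intronless copy of the same gene, had 68 reads in TGS24 and 20 in Control, a log2 ratio of 0.78 with 0 inside its interval. The 60-base stretch around the P-loop is identical in KIF4A and KIF4B, and 2.12% of the 100-base windows of the KIF4A transcript occur in KIF4B, where reads cannot be told apart.

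KIF2C, also called MCAK, removes tubulin from microtubule ends at centromeres and had 167 reads in TGS24 and 32 in Control. It was 2.64-fold higher, with a log2 ratio of 1.40 and an interval from 0.66 to 2.31, and 1.61 after centring. KIF22, or Kid, pushes chromosome arms away from the poles and had 60 reads in TGS24 and 13 in Control. Its log2 ratio was 1.18 and its interval, from 0.01 to 2.75, began just above 0. With GC centring it was 1.53, while with a prior count of 8 it was 0.99 and no longer passed. An antisense gene overlaps 13.0% of its exon bases.

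KIF18A and KIF18B, which shorten microtubule plus ends, had 12 and 11 reads in TGS24 and 10 and 12 in Control, with intervals that held 0. KIF2B, a relative of KIF2C, had 6 reads in TGS24 and 6 in Control, under the read minimum.

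Of the kinesins of cytokinesis KIF23 and KIF20B were higher, and KIF20A and KIF14 passed in neither direction. KIF23, or MKLP1, is the motor of the centralspindlin complex at the midzone and had 474 reads in TGS24 and 95 in Control. It was 2.57-fold higher, with a log2 ratio of 1.36 and an interval from 0.92 to 1.85, and 0.91 after centring. KIF20B, or MPHOSPH1, needed for completing cytokinesis, had 148 reads in TGS24 and 20 in Control. This was the largest ratio of the measured kinesins, 3.66-fold, with a log2 ratio of 1.87 and an interval from 0.98 to 3.06, and it stood at 0.96 after centring. KIF20A, or MKLP2, which brings the chromosomal passenger complex to the midzone, had 45 reads in TGS24 and 46 in Control. Its log2 ratio was -0.94 with an interval from -1.88 to -0.07, just short of 2-fold. It passed as lower, at -1.09, when factors were computed over genes with at least 100 reads. KIF14, which works with citron kinase in cytokinesis, had 72 reads in TGS24 and 20 in Control, a log2 ratio of 0.86 (interval -0.14 to 2.08).

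As the mitotic genes are known for expression that peaks late in the cell cycle, the 120 bases before the transcript start are shown for the 3 of them that were higher and hold both motifs searched, and for KIF20A. Capitals mark the CCAAT box and the cell cycle homology element, the box searched as CCAAT and the element either as TTTGAA or in the form TTCGAA, on both strands. The motifs do not overlap in these windows. Sequences are from RefSeq on GRCh38.p14, all on the plus strand.
KIF4A: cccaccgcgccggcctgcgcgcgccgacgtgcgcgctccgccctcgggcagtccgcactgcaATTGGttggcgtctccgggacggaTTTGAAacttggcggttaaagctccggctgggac
KIF23: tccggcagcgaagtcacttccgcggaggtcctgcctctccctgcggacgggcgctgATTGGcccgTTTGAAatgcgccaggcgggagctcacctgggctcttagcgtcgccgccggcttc
KIF22: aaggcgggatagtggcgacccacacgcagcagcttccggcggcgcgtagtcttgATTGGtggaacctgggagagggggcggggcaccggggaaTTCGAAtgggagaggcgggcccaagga
KIF20A: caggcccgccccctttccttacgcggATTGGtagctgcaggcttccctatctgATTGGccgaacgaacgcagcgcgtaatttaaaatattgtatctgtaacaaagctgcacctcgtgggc

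These windows are chrX:70289984-70290103 for KIF4A, chr15:69414229-69414348 for KIF23, chr16:29790631-29790750 for KIF22 and chr5:138178992-138179111 for KIF20A. In KIF4A the CCAAT box begins 58 bases and the element 34 bases before the start. In KIF23 they begin 64 and 55 bases before it, and in KIF22 66 and 27. The table matched 35 of the 45 genes, and the 250 bases before the first listed start were searched in each. For KIF5C that start lies downstream of its P-loop codons, and it is kept in the counts. Of 14 mitotic promoters 6 held the element and 11 held a CCAAT box, and 5 held both. Of 13 transport promoters 1 held the element, that of KIF5B, and 3 held a CCAAT box. Over all 27305 promoters the shares were 14.6% for the element, 33.0% for the CCAAT box and 5.24% for both. The element was found in KIF15, KIF4A, KIF23 and KIF22, which were higher, and in KIF11 and KIF18A, which passed in neither direction. It was not found in the windows of KIF20B and KIF2C, also higher. A match describes these letters only.

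Of the 11 genes of other or mixed roles 7 were measured. By the rule 1 was higher and none lower, beside 12.7% and 6.31% over all genes. After GC centring none passed, beside 5.35% higher and 5.95% lower. KIF2A, which shortens microtubules in interphase and at spindle poles, had 1436 reads in TGS24 and 271 in Control. It was 2.74-fold higher, with a log2 ratio of 1.46 and an interval from 1.19 to 1.74, and 0.82 after GC centring. IPO11, on the same strand, overlaps 8.97% of the exon bases of KIF2A. Counted as mitotic, KIF2A would move the median of that class to 1.02. KIF7, a regulator of Hedgehog signalling in cilia, had 45 reads in TGS24 and 39 in Control, with a log2 ratio of -0.71 and an interval from -1.68 to 0.21. The centriole gene KIF24 and the genes KIF19, KIF26B, KIF9 and KIF6 had log2 ratios between 0.24 and 0.67, on 20 to 42 reads in TGS24 and 6 to 14 in Control. Each of their intervals held 0. KIF26A, KIF25, KIF12 and KIF27 were under the read minimum, with 4, 4, 8 and 7 reads in TGS24 and 7, 0, 8 and 4 in Control.

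Closely related genes were also set against each other within each library, which does not depend on how the libraries are scaled. All 20 pairs of measured genes of the same number or letter stem, and KIF5B with each light chain, were compared after the values of single genes were seen. In each pair the gene with the lower GC content was placed on top. Ratios fell with GC content over all genes, so this placing alone favours values above 0. Pairs of other genes were not counted in the same way, so the counts of pairs have no background share. The change of the pair's read ratio in TGS24 over Control had an interval above 0 in 12 pairs, below 0 in 1, KLC4 over KLC2, and across 0 in 7. Many pairs share a gene and are not independent.

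KIF20B had 3.29 reads per read of KIF20A in TGS24 and 0.435 in Control, a 7.26-fold shift, with a log2 value of 2.86 and an interval from 1.51 to 4.31. The order of these cytokinesis motors by reads was thus opposite in the libraries. KIF3A had 5.29 reads per read of KIF3C in TGS24 and 0.801 in Control, with a log2 shift of 2.70 and an interval from 2.06 to 3.36. Against KIF3B it had 1.15 in TGS24 and 0.430 in Control, with a log2 shift of 1.41 and an interval from 0.91 to 1.91. By reads alone these pairs, too, changed order, but KIF3A lay close to KIF3B in TGS24 and to KIF3C in Control. The intervals are for the shifts, not for the order within a library.

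KIF21A had 18.5 reads per read of KIF21B in TGS24 and 2.32 in Control, with a log2 shift of 3.04 and an interval from 1.62 to 4.48. KIF1B had 3.72 reads per read of KIF1C in TGS24 and 1.37 in Control, with a log2 shift of 1.44 and an interval from 1.17 to 1.71. Heavy chain and light chains of kinesin-1 drew apart. KIF5B had 24 reads per read of KLC2 in TGS24 and 7.27 in Control, and 414 per read of KLC4 in TGS24 and 32.1 in Control. The log2 shifts were 1.72, with an interval from 1.35 to 2.09, and 3.72, with an interval from 2.64 to 4.90. For KIF2A over KIF2C the ratios were 8.60 in TGS24 and 8.47 in Control, a log2 shift of 0.01 with an interval from -0.91 to 0.84.

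After the median ratio of each GC class was subtracted, 11 pairs had an interval above 0 and 1 below it. The shift of KIF5B over KIF5A then held 0 in its interval, from -0.03 to 2.68. The shift of KIF20B over KIF20A was 1.86, that of KIF21A over KIF21B 2.14, that of KIF3A over KIF3C 1.52, that of KIF3A over KIF3B 0.60 and that of KIF5B over KLC2 0.59.

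**Figure D3:**
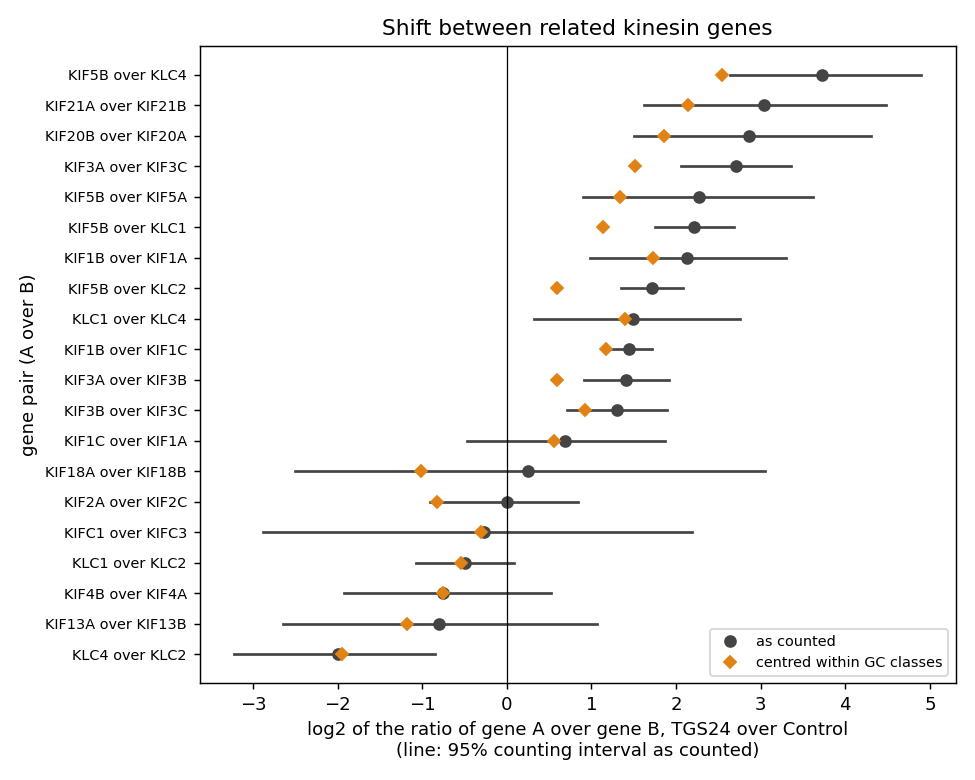
Change of the read ratio of related kinesin genes, TGS24 over Control, on the log2 scale for 20 pairs, with the gene of lower GC content on top. Circles with lines are values as counted with 95% counting intervals, and diamonds are values centred within GC classes. KIF5B over KLC4 at 3.72 and KIF21A over KIF21B at 3.04 lie farthest to the right, and KLC4 over KLC2 at -1.99 farthest to the left.

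GC content moved with the kinesin ratios throughout. Over the 38 measured genes GC content and log2 ratio were related with a rho (Spearman) of -0.66 and an r (Pearson) of -0.62, given as a description across genes that share the same 2 libraries. Over 9960 tested genes with a known GC content these were -0.46 and -0.42. All 10 kinesins with a GC content under 45% except KIF18A had a ratio above 0, and 7 of them were at least 2-fold higher. In these classes 562 of 1547 genes under 40% and 508 of 2326 genes from 40% to 45% were higher. Of the 13 kinesins with a GC content of 55% or more, KIF22 alone was higher and KLC4, KIF3C and KIF1A were lower, where 21 of 2671 genes were higher and 299 lower.

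**Figure D4:**
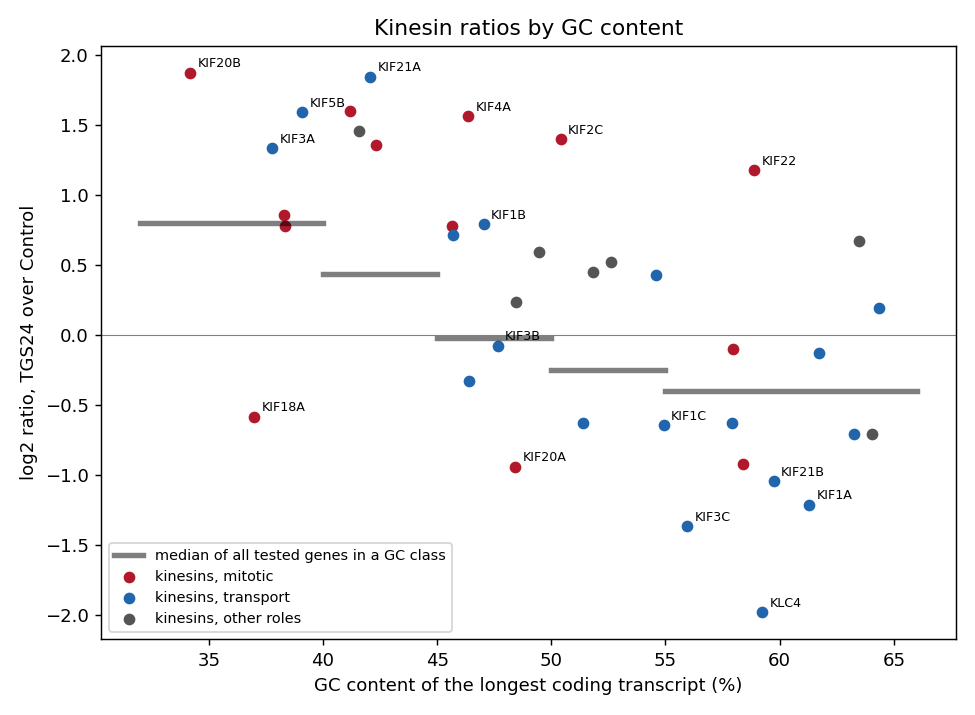
Log2 ratio of TGS24 over Control of the 38 measured kinesin genes against the GC content of the longest coding transcript, coloured by role, with the median of all tested genes in each of 5 GC classes as bars. The bars step down from 0.80 under 40% to -0.40 at 55% and above, and KIF4A, KIF2C and KIF22 lie well above their bars.

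Genes whose proteins work with kinesins were described from lists by role, beside the shares of 12.7% higher and 6.31% lower over all genes. Of 17 measured mitotic partners 4 were higher and 2 lower. Their median was 0.15 on the log2 scale, beside -0.0041 over all genes. PRC1, the midzone protein bound by KIF4A, had 134 reads in TGS24 and 20 in Control, a log2 ratio of 1.73 (interval 0.83 to 2.92). ANLN, of the contractile ring, had 687 reads in TGS24 and 120 in Control, a log2 ratio of 1.56 (interval 1.17 to 1.99). CKAP5, which promotes growth at microtubule ends, had 6079 reads in TGS24 and 1072 in Control, a log2 ratio of 1.56 (interval 1.43 to 1.69). These 3 genes and ECT2, a regulator of cytokinesis with a log2 ratio of 1.09, were the higher ones. PLK1, a mitotic kinase, had 168 reads in TGS24 and 204 in Control, a log2 ratio of -1.21 (interval -1.66 to -0.79), and NUMA1 was lower at -1.11.

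After GC centring the median of the mitotic partners was -0.0041, and again 4 were higher and 2 lower, in part other genes. PRC1 and CKAP5 still passed, at 1.83 and 1.35, while ANLN, ECT2, PLK1 and NUMA1 did not, at 0.90, 0.29, -0.83 and -0.66. CIT and AURKB then passed as higher, at 1.08 and 1.94, and ASPM and CENPE as lower, at -1.35 and -1.04. CENPE, a kinesin outside the naming rule, had 65 reads in TGS24 and 37 in Control, and its log2 ratio as counted was -0.13 with 0 inside its interval. RACGAP1, the partner of KIF23 in centralspindlin, had 274 reads in TGS24 and 167 in Control, a log2 ratio of -0.23 (interval -0.63 to 0.18).

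Of 18 measured adaptors and regulators of transport kinesins 3 were higher and 5 lower, beside 12.7% and 6.31% over all genes. Their median was -0.46. TOR1A, whose product binds kinesin light chains, had 10 reads in TGS24 and 30 in Control, a log2 ratio of -2.26 (interval -4.34 to -0.997). TRAK1, the adaptor that joins RHOT proteins to kinesin-1, had 14 reads in TGS24 and 36 in Control, a log2 ratio of -2.11 (interval -3.81 to -0.98). These genes were lower on few reads, while RHOT1, which links mitochondria to kinesin, was higher on many. RHOT1 had 2313 reads in TGS24 and 403 in Control, a log2 ratio of 1.57 (interval 1.36 to 1.80). FEZ2 had 65 reads in TGS24 and 87 in Control, a log2 ratio of -1.33 (interval -2.07 to -0.68). Of the others that passed, the kinesin receptor gene KTN1 and the scaffold gene SPAG9 stood at 1.29 and 1.06. CLSTN1, whose product binds kinesin light chains, and MAP7D1 stood at -1.23 and -1.01. After GC centring RHOT1, KTN1 and SPAG9 no longer passed, at 0.94, 0.49 and 0.61, nor did CLSTN1 and MAP7D1. TOR1A, TRAK1 and FEZ2 remained lower, and PLEKHM2 then passed as higher, at 1.21, and KIAA1279 as lower, at -1.48.

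Cytoplasmic dynein and dynactin, the motor that walks the other way and its activator, had a median of 0.22 over 23 measured genes. Of these 2 were higher and 1 lower, beside 12.7% and 6.31% over all genes. DCTN2 had 63 reads in TGS24 and 83 in Control, a log2 ratio of -1.31 (interval -2.06 to -0.64). DYNC2H1 had 250 reads in TGS24 and 57 in Control, a log2 ratio of 1.17 (interval 0.59 to 1.83). HOOK3 had 452 reads in TGS24 and 107 in Control, a log2 ratio of 1.12 (interval 0.70 to 1.59). After GC centring DYNC2H1 and HOOK3 no longer passed, at 0.37 and 0.32, and DCTN2 still did, at -1.003. Among 13 measured tubulin genes TUBE1, with 80 reads in TGS24 and 18 in Control, was higher at 1.15 (interval 0.14 to 2.44). TUBB4A, with 100 reads in TGS24 and 112 in Control, was lower at -1.09 (interval -1.69 to -0.53), and after GC centring none of the 13 passed.

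The 900 genes of the authors' deposited table of calls include none of the 45 kinesin genes. Those calls need not follow the 2-fold rule used here. The authors' deposited table of filtered genes holds 43 of the 45. There the values farthest from 0 were a log2 ratio of 1.95 for KIF20B and of -2.09 for KLC4. Lines in that table labelled as mean plus and mean minus 2 SD stand at 2.01 and -2.15, farther out than these values. The deposited log2 ratios have no prior count. KIF25 and KIFC2, with 0 Control reads, are the genes it leaves out.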

How the data were processed

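Per the labels' protocols, Trizol was used to isolate total RNA from each spheroid sample, and paired reads of 150 bases were sequenced. The submitters' processing notes list, without roles, featureCounts 1.5.2, STAR, Bowtie2 2.2.4, Trimmomatic and DESeq2, and the build hg19. Nothing is stated there on strand, multi-mapping reads or the annotation release. The authors deposited a normalized signal, which the spacing of its low values shows to be gene reads over a single size factor in each library. The deposited ratio (fold change) and log2 columns of the filtered and called tables are TGS24 over Control without a pseudocount. The design had assumed counts. Whole reads were recovered from that spacing for 99.9% of values above 0 in either library (relative tolerance 1e-06). Rows (49) that repeated an identifier, stood out of order, were not whole or differed between tables were left out, with 0.620% of TGS24 reads and 0.676% of Control reads. No kinesin was among them.

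Reads were scaled with TMM in edgeR 4.0.16 (R 4.3.3), with a prior count of 2 and a minimum of 20 reads. No count test was run, as 1 library per group allows none. Even counts made up 73.5% of genes with reads in TGS24 and 75.3% in Control, so intervals were computed on read pairs, as reads divided by 2. PCR copies are not independent molecules, and intervals and floors cover counting error only. GC content and exon length came from GENCODE v29 (GRCh38) by Ensembl identifier, with a value for all 45 genes, and GC centring used 20 classes. Pair shifts are conditional odds ratios with exact intervals. Python 3.11.15, numpy 2.4.6, scipy 1.17.1, pandas 2.3.3 and matplotlib 3.10.9 were used, and the steps were tested on simulated data.

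All kinesin genes are named. Full values are given for those past 2-fold, the 6 with most reads and the 2 genes on each side of the threshold, and of each partner list up to 4 genes past 2-fold, by size of ratio. Further partners, the gene pairs and the printed sequences were chosen after values were seen. Members, roles and lists were chosen with earlier results of these data known.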

Additional observations from a re-analysis of the deposited data

How the results depend on the processing

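The 10 other settings were the authors' size factors, median-of-ratios factors, library totals, TMM over genes with at least 100 reads, TMM without small and mitochondrial RNA genes, no filter on low counts, at least 100 reads, a prior count of 8, GC centring and intervals on reads. No kinesin gene past the 2-fold rule changed sign in any of them. Under GC centring 4 kinesins were higher and 1 lower, and 533 genes were higher over all genes. TMM over genes with at least 100 reads gave 5 lower kinesins. A minimum of 100 reads left 1 lower kinesin and 246 lower genes over all, by construction, since 17 of the 38 kinesins remained, and there the median was 1.33 over all kinesins, 1.48 over mitotic and 0.32 over transport genes, against 0.44, 0.86 and -0.23. The median of all genes moved to 0.15 there, to 0.16 with no filter and to -0.16 with TMM over genes with at least 100 reads. GC centring ended 8 calls of single kinesins. No filter, for which the factors were recomputed over all genes with reads, ended the call of KIF1A and added KIF14 at 1.01. A prior count of 8, or TMM over genes with at least 100 reads, ended that of KIF22, at 0.99 and 1.03. KIF20A (-1.09) and KIF21B (-1.20) passed as lower with that TMM, and KIF21B also with intervals on reads. Added after seeing the data, pair shifts on reads in place of pairs moved KLC1 over KLC2 to an interval below 0, at -0.50. Depth is a limit for the 21 measured kinesins with under 100 reads. No paired analysis was possible because each group has 1 library, and for the same reason no library could be left out. The cause of these changes was not tested.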
